A study of Mus musculus with 8 samples.

Results

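A group of 10 genes was examined whose proteins carry fatty acids into the hepatocyte, bind them in the cytosol and activate them. The genes were Cd36, Slc27a2, Slc27a4, Slc27a5, Fabp1, Fabp4, Acsl1, Acsl3, Acsl4 and Acsl5. They were taken by gene symbol from a table of 45706 genes, and all 10 were among the 14629 genes that had enough reads to be tested. RNA sequencing was done on the liver of 4 WT mice and 4 SA/SA mice, with 1 library per mouse. SA/SA mice carry the S155A replacement of a serine of PLIN5, a protein that coats lipid droplets, on both alleles and in every tissue, since the change was made in the genome by CRISPR-Cas9 and verified in a founder mouse. All 8 mice were C57BL/6J females, 4 months old, kept on chow and fasted overnight, so no fed liver stands beside them. The labels name both liver and hepatocytes, and whole liver is what the extraction describes. In whole liver, fewer cells of a type and less RNA per cell cannot be told apart.

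During fasting, fatty acids released from adipose tissue reach the liver in the circulation. CD36 and the fatty acid transport proteins of the Slc27 family favour their entry, binding proteins of the FABP family hold them in the cytosol, and long-chain acyl-CoA synthetases (the Acsl genes) join them to coenzyme A. The CoA ester is the form that enters beta-oxidation or is esterified into triglyceride, which lipid droplets store. Several genes of this group, Fabp1, Cd36 and Acsl1 among them, are textbook targets of the nuclear receptor PPARa, the main transcriptional regulator of fatty acid oxidation in fasting.

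The nuclear receptor PPARa binds with RXR to direct repeats of the hexamer AGGTCA that are spaced by a single base, AGGTCANAGGTCA. The promoters of Fabp1 and Cd36 are shown because they were the promoters of the group in which such a repeat was found when up to 2 of the fixed bases were allowed to differ. Each run holds the 250 bases before the start site in RefSeq on GRCm38.p6, in the direction of transcription, and capitals mark the repeat and each exact AGGTCA, both strands searched. Because the matches lie on the reverse strand, they read as TGACCT and its variants.
Fabp1, chr6:71199629-71199878, plus strand: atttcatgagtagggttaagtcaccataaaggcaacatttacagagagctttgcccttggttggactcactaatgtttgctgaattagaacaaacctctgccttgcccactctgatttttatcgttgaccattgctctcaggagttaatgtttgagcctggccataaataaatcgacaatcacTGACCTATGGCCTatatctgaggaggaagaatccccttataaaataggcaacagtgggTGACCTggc
Cd36, chr5:17835897-17836146, minus strand: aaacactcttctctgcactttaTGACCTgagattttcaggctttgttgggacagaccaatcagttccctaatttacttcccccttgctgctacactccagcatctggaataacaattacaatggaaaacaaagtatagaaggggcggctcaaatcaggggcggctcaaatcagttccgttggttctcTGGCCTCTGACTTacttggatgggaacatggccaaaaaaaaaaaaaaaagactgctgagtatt

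Read on the strand of the match, with capitals for the bases equal to the motif, the repeats were as follows.
Fabp1, 67 to 55 bases before the start: AGGcCAtAGGTCA
Cd36, 63 to 51 bases before the start: AaGTCAgAGGcCA
The repeat of Fabp1 had 1 difference from the motif and that of Cd36 had 2. The exact hexamer in the Fabp1 repeat is part of the same match and does not count as a separate site, while a further AGGTCA of Fabp1 begins 9 bases before the start and that of Cd36 begins 228 bases before it. Of the 10 genes, 8 were matched to 9 RefSeq promoter windows of 300 bases, 250 before and 50 after the start. Fabp4 and Slc27a5 were not matched. The hexamer was found in the windows of 3 genes, Cd36, Fabp1 and Slc27a2, against 16.3% of 32851 promoter windows of the same length. The repeat was found in 2 windows, against 3.86% of all windows. A match describes the letters in the window and is not evidence of binding. RefSeq and GENCODE M21 place the start of Fabp1 and of Cd36 differently. GENCODE starts Fabp1 at 71199827, inside the printed run, so the AGGTCA that begins 9 bases before the RefSeq start lies within the GENCODE gene. The printed Cd36 run lies wholly inside the GENCODE gene, which starts at 17888801 on the minus strand and has 6 annotated transcripts.

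Expression is given as CPM, counts scaled to a common library size after TMM normalization. Libraries held 39709785 to 54540864 counts, of which the 10 genes together made up 0.672% to 1.27%. The hepatocyte markers Alb, Apoa1, Ttr, Cps1, Tat and Hnf4a summed to between 84186 and 122507 CPM, so markers of the labelled tissue were abundant in every mouse. Several libraries stood apart in markers of other cells. The 8 endothelial markers summed to 262.9 CPM in WT replicate 4 and to between 159.8 and 205.7 CPM in the other mice. The 6 adipocyte markers, all at low counts, summed to 1.85 CPM in SA/SA replicate 1 and to between 4.94 and 7.24 CPM in the other mice. The 6 lymphocyte markers summed to 1247 CPM in SA/SA replicate 3 and to between 9.22 and 24.1 CPM in the other mice, and SA/SA replicate 3 also had the smallest total count. The 5 markers of pancreatic acinar cells summed to 26.8 CPM in WT replicate 2 and to at most 0.612 CPM elsewhere. The 6 stellate cell markers summed to 97.4 CPM in SA/SA replicate 2 and to between 170.2 and 295 CPM in the other mice, and all 6 had a lower mean in SA/SA mice, with log2 fold changes between -0.60 and -0.14 and adjusted p-values of 0.993 by edgeR. Plin5 itself was at 254, 194, 183 and 194 CPM in WT replicates 1 to 4 and at 457, 276, 192 and 386 CPM in SA/SA replicates 1 to 4, a log2 fold change of 0.67 (standard error 0.24, unadjusted p = 0.0193, adjusted p = 0.993, edgeR). The genotypes overlapped for Plin5, and gene counts cannot show which codon a read carries.

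Compared per kilobase, the group spanned several orders of magnitude, with Fabp1, the liver-type fatty acid binding protein, far above the rest. By the main measure, the median CPM per kilobase of the union of annotated exons over the 8 mice was 9259 for Fabp1, 556 for Slc27a2, 414 for Slc27a5, 104 for Acsl1 and 81.5 for Acsl5. It was 44.5 for Cd36, 14.2 for Slc27a4, 3.5 for Acsl4, 2.07 for Acsl3 and 1.09 for Fabp4. On this scale the ranges of Slc27a2 and Slc27a5 overlapped, as did those of neighbours from Acsl1 to Cd36 and from Acsl4 to Fabp4. The union is inflated for genes with long noncoding transcripts: that of Fabp4 is 4489 bases against 896 bases of its coding transcript, and that of Acsl1 is 10483 against 3897 bases.

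A measure added after the data were seen, CPM per kilobase of the longest protein-coding transcript, kept 7 of the 10 places. Fabp1 was at 9259 again, between 5036 and 12981 in single mice. Slc27a2 (FATP2, a transporter that also activates very long-chain fatty acids) followed at 715, and Slc27a5 (FATP5, a transporter of the liver that also activates bile acids) at 441. Acsl1 was at 279.8, Acsl5 at 93.4, Cd36 at 47.0 and Slc27a4 (FATP4, a transporter found in many tissues) at 15.4. The lowest were Fabp4 at 5.46, Acsl4 at 3.59 and Acsl3 at 2.29. On this scale no ranges of neighbours overlapped from Fabp1 down to Fabp4, and each of these genes was above the next in all 8 mice until Fabp4, which was above Acsl4 in 7 of 8. Acsl4 was above Acsl3 in 8 of 8 mice although their ranges overlapped.

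**Figure D1:**
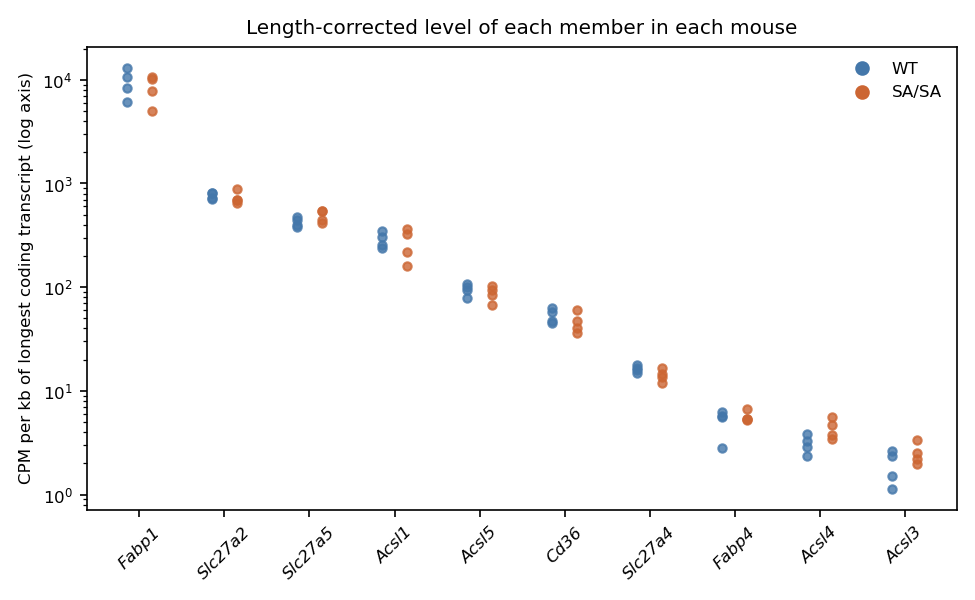
Level of each of the 10 genes in each mouse as CPM per kilobase of the longest protein-coding transcript, on a log axis, with WT mice in blue and SA/SA mice in orange. Fabp1 lies between 5036 and 12981 in every mouse and Acsl3, the lowest gene, has a median of 2.29.

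Among the 4 synthetases, Acsl1 and Acsl5 made up nearly all of the length-corrected signal. Per kilobase of the longest coding transcript, Acsl1 took a median of 73.6% of the summed Acsl level (67.7% to 77.0% in single mice) and Acsl5, a synthetase of the mitochondrial outer membrane and endoplasmic reticulum, took 25.1% (21.5% to 29.0%). Acsl4, which prefers arachidonic acid, took 0.873% and Acsl3, found on the endoplasmic reticulum and lipid droplets, took 0.573%. Per kilobase of the union of exons, the median share was 54.2% for Acsl1, 43.3% for Acsl5, 1.70% for Acsl4 and 1.04% for Acsl3, so the order of the 4 was kept and the share of Acsl1 depended on its length.

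None of the 10 genes passed an adjusted p of 0.05 between the genotypes by edgeR's quasi-likelihood test, and 0% of the whole table did, so the count in the group equalled the background. The adjusted p was 0.993 for 8 of the genes and 0.996 for Slc27a2 and Acsl1. Only Acsl4, 1 of the 10, was at an unadjusted p under 0.05, a level that 3.4% of all genes reached (497 of 14629). Without SA/SA replicate 1, 3 of the 10 were at that level, Cd36, Slc27a4 and Acsl4, with log2 fold changes of -0.38, -0.29 and 0.59, and the share of all genes in that fit was 6.02%. Of the 10 genes, 4 had a higher and 6 a lower mean in SA/SA mice, and the median log2 fold change was -0.085 against -0.0050 for all genes. For none of the 10 did the CPM ranges of the genotypes separate, a pattern seen in 2.3% of all genes. DESeq2 in place of edgeR called 0 of the 10 genes as well and 0.041% of all genes, with 1 of the 10 genes and 4.06% of all genes at an unadjusted p under 0.05.

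Of the proteins of uptake, Cd36, the membrane receptor that facilitates entry of long-chain fatty acids, was at 161, 212, 197 and 154.6 CPM in WT replicates 1 to 4 and at 204, 159, 122 and 138 CPM in SA/SA replicates 1 to 4. The ranges overlapped: the highest WT mice were replicates 2 and 3, and SA/SA replicate 1 lay between them in level. The WT mean was 181 ± 28.0 CPM and the SA/SA mean 156 ± 35.3 CPM (SD, n = 4 each), and the log2 fold change was -0.22 with a standard error of 0.17 and a 95% interval from -0.60 to 0.16. Slc27a4 had the narrowest interval of the 10 genes and a similar difference. It was at 64.2, 66.9, 72.2 and 60.9 CPM in WT mice and at 67.3, 59.1, 48.3 and 55.1 CPM in SA/SA mice, a log2 fold change of -0.20 with an interval from -0.46 to 0.06. Of the 4 SA/SA mice, 3 were below every WT mouse for Slc27a4, and SA/SA replicate 1 was above 3 of the WT mice.

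The liver-enriched transporters Slc27a2 and Slc27a5 differed little between the genotypes, with opposite signs. Slc27a2 was at 2338, 2045, 2130.2 and 2365 CPM in WT mice and at 2042, 2011, 1896 and 2563 CPM in SA/SA mice, a log2 fold change of -0.06 with an interval from -0.33 to 0.21. SA/SA mice held both the lowest 3 values and the highest. Slc27a5 was at 1008, 1087, 874 and 915 CPM in WT mice and at 947, 1238, 1243 and 1009 CPM in SA/SA mice, a log2 fold change of 0.19 with an interval from -0.09 to 0.48. SA/SA replicates 2 and 3 were the highest of the 8 mice for Slc27a5, and the other SA/SA mice lay within the WT range.

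Of the binding proteins, Fabp1 varied most in absolute terms. It was at 3350.1, 5912, 7178 and 4600.2 CPM in WT replicates 1 to 4 and at 5641, 4320.5, 2785 and 5908 CPM in SA/SA replicates 1 to 4. WT replicate 3 was the highest and SA/SA replicate 3 the lowest of the 8 mice, and the 6 others were mixed. The log2 fold change was -0.17 with a standard error of 0.27 and an interval from -0.79 to 0.44. Fabp4, the binding protein of adipocytes and macrophages, had the fewest counts of the group, 136 to 281 per library. It was at 2.54, 5.14, 4.97 and 5.55 CPM in WT mice and at 4.76, 4.82, 6.04 and 4.71 CPM in SA/SA mice, with a log2 fold change of 0.16 and an interval from -0.38 to 0.70. WT replicate 1 was the lowest and SA/SA replicate 3 the highest, and the other 6 mice lay between 4.71 and 5.55 CPM. The 6 adipocyte markers summed to between 4.94 and 6.38 CPM in WT mice and between 1.85 and 7.24 CPM in SA/SA mice, most of it Adrb3 with 84 to 347 counts. Lep was at 0 counts in every library, Retn at 0 to 1, Plin1 at 0 to 9, Cfd at 1 to 17 and Adipoq at 1 to 19. Kupffer cell and macrophage markers summed to between 187 and 384 CPM in WT mice and between 203 and 432 CPM in SA/SA mice. The part of either cell type in the Fabp4 values was not tested.

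**Figure D2:**
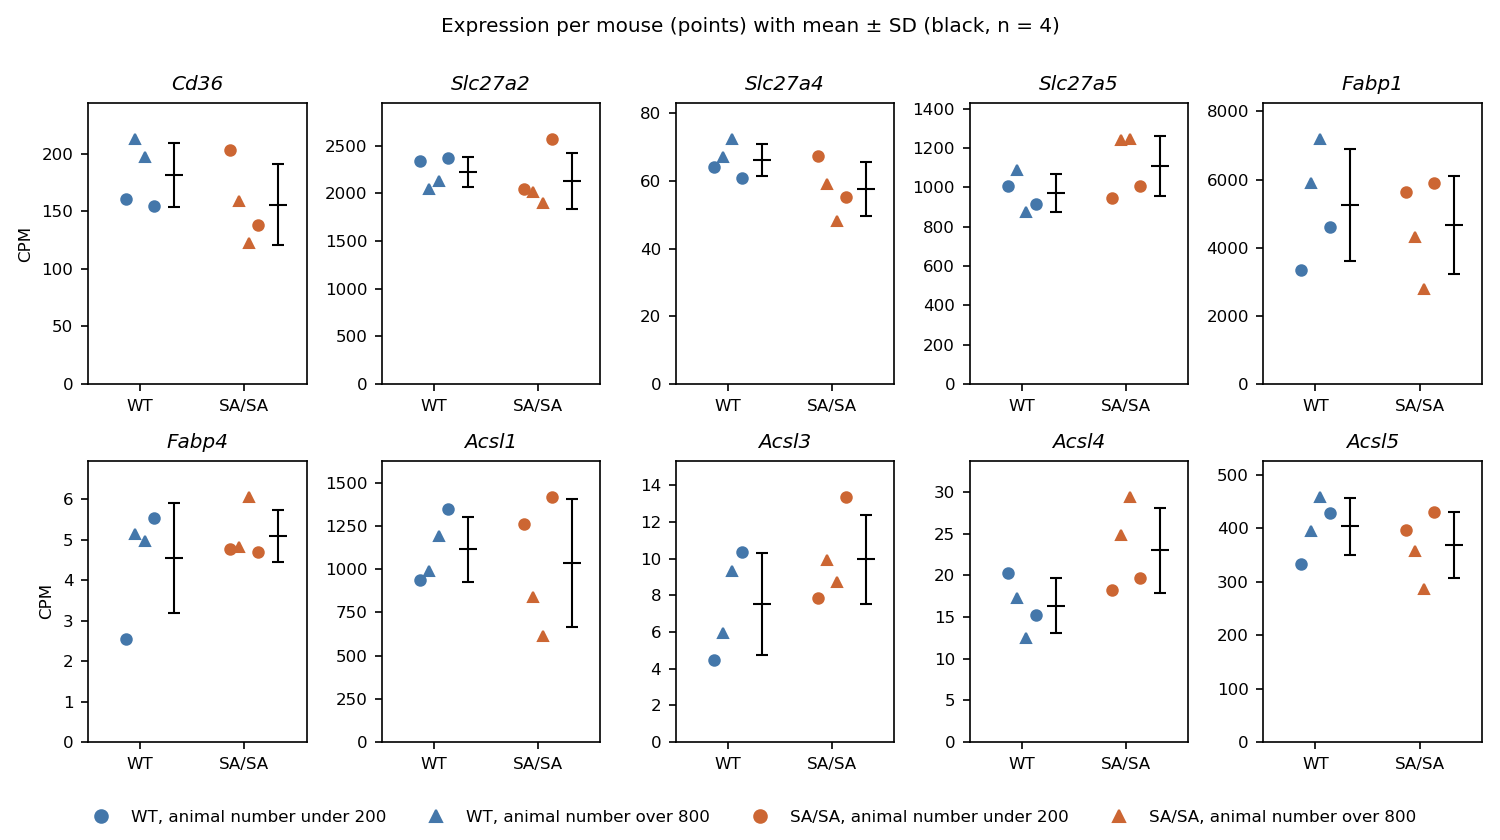
CPM of each of the 10 genes in each mouse, with WT in blue and SA/SA in orange, circles for animal numbers under 200 and triangles for those over 800, and the mean ± SD of 4 mice in black. The genotypes overlap in every panel. For Acsl4 the lowest SA/SA mouse, at 18.2 CPM, is below the highest WT mouse, at 20.3 CPM.

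Of the synthetases, Acsl4 had the largest genotype difference of the group. It was at 20.3, 17.3, 12.5 and 15.3 CPM in WT replicates 1 to 4 and at 18.2, 24.8, 29.4 and 19.7 CPM in SA/SA replicates 1 to 4. SA/SA replicates 2 and 3 were above every WT mouse, and WT replicate 1 was above SA/SA replicates 1 and 4. The WT mean was 16.3 ± 3.30 CPM and the SA/SA mean 23.0 ± 5.09 CPM (SD, n = 4 each). The log2 fold change was 0.49 with a standard error of 0.19, an interval from 0.08 to 0.91, an unadjusted p of 0.0252 and an adjusted p of 0.993 by edgeR, rank 208 of the genes tested. Without SA/SA replicate 3, the library with the lymphocyte markers, it was 0.36 with an unadjusted p of 0.0785, and 0 of the 10 genes then reached an unadjusted p under 0.05, as 2.43% of all genes did. The unadjusted p of Acsl4 also passed 0.05 without WT replicate 3 (0.0709), WT replicate 4 (0.0586) or SA/SA replicate 2 (0.0526), while its log2 fold change stayed between 0.36 and 0.62 with each mouse left out. SA/SA replicates 2 and 3, the mice highest in Acsl4, also had the highest hepatocyte marker sums. These were 117083 and 122507 CPM, against at most 103671 CPM in the other mice. SA/SA replicate 2 had the lowest stellate marker sum and the highest sum of Kupffer cell and macrophage markers (432 CPM). SA/SA replicate 3 had the highest lymphocyte marker sum. The part of any of these in the Acsl4 values was not tested.

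Acsl3 had a point estimate nearly as large, with more spread. It was at 4.49, 5.96, 9.33 and 10.4 CPM in WT mice and at 7.84, 9.93, 8.74 and 13.3 CPM in SA/SA mice, a log2 fold change of 0.40 with an interval from -0.20 to 1.01. WT replicates 1 and 2 were below every SA/SA mouse, and WT replicates 3 and 4 lay within the SA/SA range. Utp14b lies on the same strand within the annotated span of Acsl3, so reads that fall on both cannot be told apart.

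Acsl1, the main synthetase of liver by level, spread more in SA/SA mice than in WT mice. It was at 937, 991, 1190.1 and 1347 CPM in WT mice and at 1264, 842, 617 and 1417 CPM in SA/SA mice, with a log2 fold change of -0.11 and an interval from -0.65 to 0.43. SA/SA mice held both the 2 lowest and the highest values. Acsl5 followed the same order of SA/SA mice, at 397, 358, 287 and 432 CPM, with 334, 396, 458 and 429 CPM in WT mice. Its log2 fold change was -0.13 with an interval from -0.46 to 0.19.

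**Figure D3:**
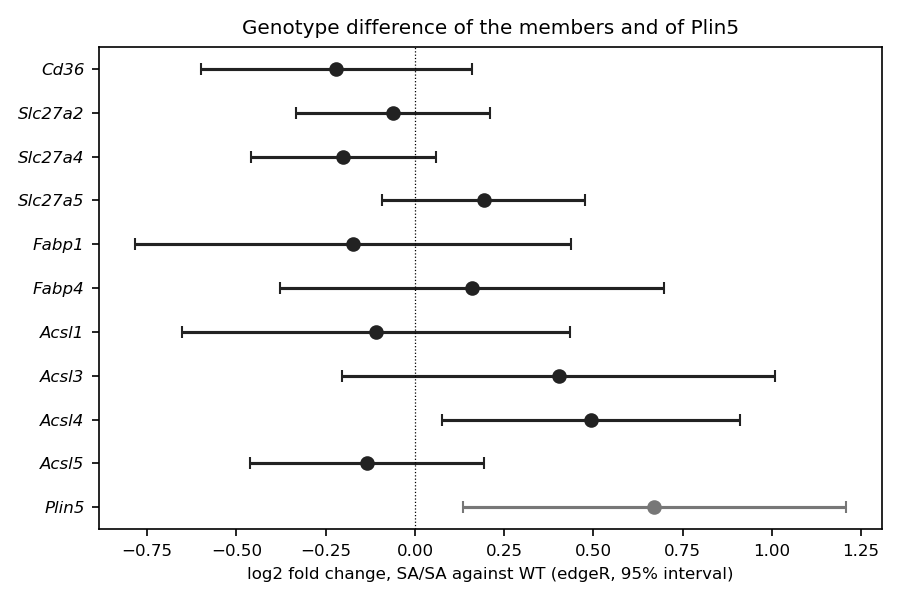
Log2 fold change of SA/SA against WT for the 10 genes and Plin5 by edgeR, with 95% intervals as bars and a dotted line at no difference. Every interval of the group crosses the line except that of Acsl4, from 0.08 to 0.91, and Plin5 is drawn in gray.

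The labels give each mouse an animal number, and the numbers fall into separate ranges, under 200 for replicates 1 and 4 of each genotype and over 800 for replicates 2 and 3. The labels do not say what the ranges stand for. Between mice with numbers under 200, 8 of the 10 genes had a higher mean in SA/SA mice, with a median log2 difference of 0.12, while between mice with numbers over 800 only 4 had, with a median of -0.24. Over all 14629 genes tested, the medians were -0.0041 and -0.0092 in the 2 ranges, with 7226 and 7151 genes higher. A list of 12 PPARa targets showed medians of 0.19 with 9 of 12 genes higher in the first range and -0.41 with 3 of 12 higher in the second. Other lists were mixed. For 20 other tested genes of uptake, binding and activation pooled, the medians were 0.046 (12 higher) and 0.15 (11 higher). The 7 binding genes among them had the signs of the 10 genes, with medians of 0.023 (4 higher) and -0.21 (2 higher). The 4 uptake genes had medians of 0.21 and 0.33 (3 higher in each range). The 9 activation genes had 0.026 (5 higher) and 0.16 (6 higher). For 9 regulators the medians were 0.021 (5 higher) and 0.14 (6 higher). With 2 mice per genotype in each range, the differences within a range were not tested one by one, and the test was that of the interaction.

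Of the 10 genes, Fabp1 differed most between the ranges. With animal numbers under 200, SA/SA replicates 1 and 4 (5641 and 5908 CPM) were above WT replicates 1 and 4 (3350.1 and 4600.2 CPM), a log2 difference of 0.56. With numbers over 800, SA/SA replicates 2 and 3 (4320.5 and 2785 CPM) were below WT replicates 2 and 3 (5912 and 7178 CPM), a log2 difference of -0.91. In edgeR's test of genotype by number range, the interaction was -1.42 on the log2 scale with a standard error of 0.33, an unadjusted p of 0.0023 and an adjusted p of 0.262. The call depended on the tool and the filter: DESeq2 gave an adjusted p of 0.00242 for Fabp1, and edgeR without a filter on low counts gave 2.62e-08. With DESeq2, 1.95% of all genes were called for the interaction, and without the filter 3.41% of 22439 genes were. Without SA/SA replicate 3 the interaction of Fabp1 was -1.14 with an unadjusted p of 0.00666, and with each mouse left out in turn it lay between -1.77 and -1.14.

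With all 8 mice, 0 of the 10 genes passed the adjusted threshold for the interaction in edgeR, where 0% of all genes did, and 4 were at an unadjusted p under 0.05, a level reached by 11.1% of all genes. Beside Fabp1 these were Acsl1 (-0.81, adjusted p = 0.387), Acsl4 (0.77, adjusted p = 0.387) and Cd36 (-0.66, adjusted p = 0.436). DESeq2 called Fabp1 only, and edgeR without the filter called Fabp1 and Acsl1, the latter with an adjusted p of 0.0154. The log2 difference of Acsl1, SA/SA minus WT, was 0.25 with numbers under 200 and -0.59 with numbers over 800. That of Acsl4 was 0.10 and 0.87, and that of Cd36 was 0.09 and -0.56. Only 1 of the 10 genes, Fabp1, was at an unadjusted p under 0.05 without SA/SA replicate 3 (7.18% of all genes in that fit), WT replicate 1 (10.2%) or WT replicate 3 (8.09%), and 2 were without SA/SA replicate 1 (8.57%).

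**Figure D4:**
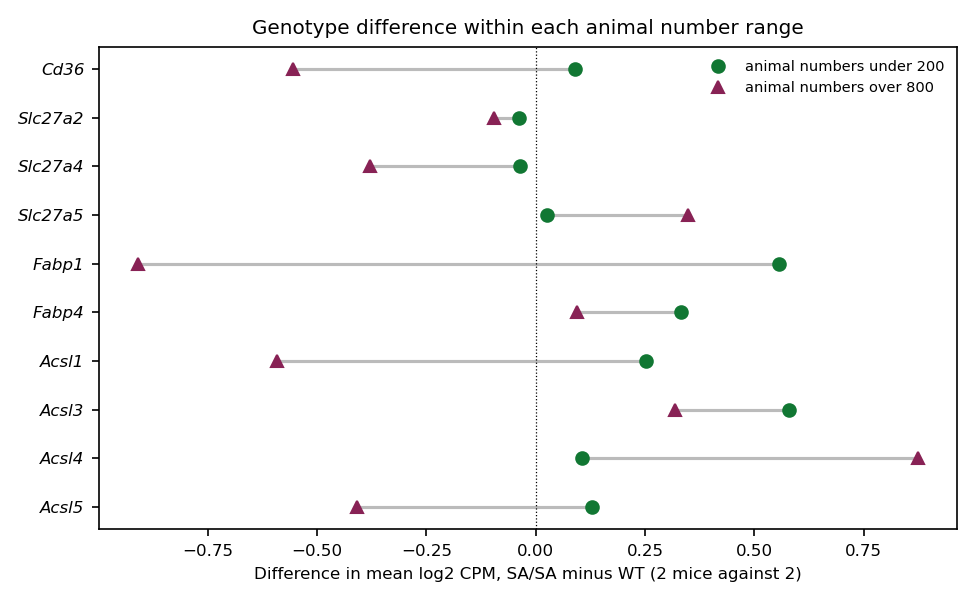
Difference in mean log2 CPM, SA/SA minus WT, between 2 mice and 2 mice with animal numbers under 200 (circles) and over 800 (triangles). Fabp1 spans the widest gap, from 0.56 to -0.91, and Acsl4 lies at 0.10 and 0.87.

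Between the number ranges themselves, with genotype in the model, 0 of the 10 genes passed the adjusted threshold by edgeR, and neither did any other gene (0%), while the CPM ranges of none of the 10 separated, against 6.85% of all genes. Acsl1 had a log2 difference of -0.47, numbers over 800 minus under 200, with an adjusted p of 0.373 by edgeR, and was the only 1 of the 10 at an unadjusted p under 0.05, as were 12.8% of all genes. DESeq2 called 0 of the 10 genes but 2.79% of all genes (408), and had 2 of the 10 and 14.5% of all genes at an unadjusted p under 0.05. By edgeR, 0 of the 10 were at that level without WT replicate 2 (9.21% of all genes in that fit), WT replicate 4 (13%), SA/SA replicate 2 (8.44%), SA/SA replicate 3 (9.93%) or SA/SA replicate 4 (9.41%), and 2 were without WT replicate 3 (16.1%).

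A single mouse held many of the extremes. SA/SA replicate 3 had the lowest value of the 8 mice for 6 genes, Cd36, Slc27a2, Slc27a4, Fabp1, Acsl1 and Acsl5, and the highest for 3, Slc27a5, Acsl4 and Fabp4, so that 9 of the 10 genes had an extreme in this mouse. Over all genes tested, it held the lowest or highest value for 30.1%, and WT replicate 1 for 30.7%. This mouse was also the one with lymphocyte markers at 1247 CPM, the smallest total count and the highest sum of hepatocyte markers. The part of these in the values of the 10 genes was not tested. Leaving it out turned the log2 fold change of Fabp1 from -0.17 to 0.011 and that of Acsl1 from -0.11 to 0.075, while Cd36 went to -0.12 and Slc27a4 to -0.12.

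**Figure D5:**
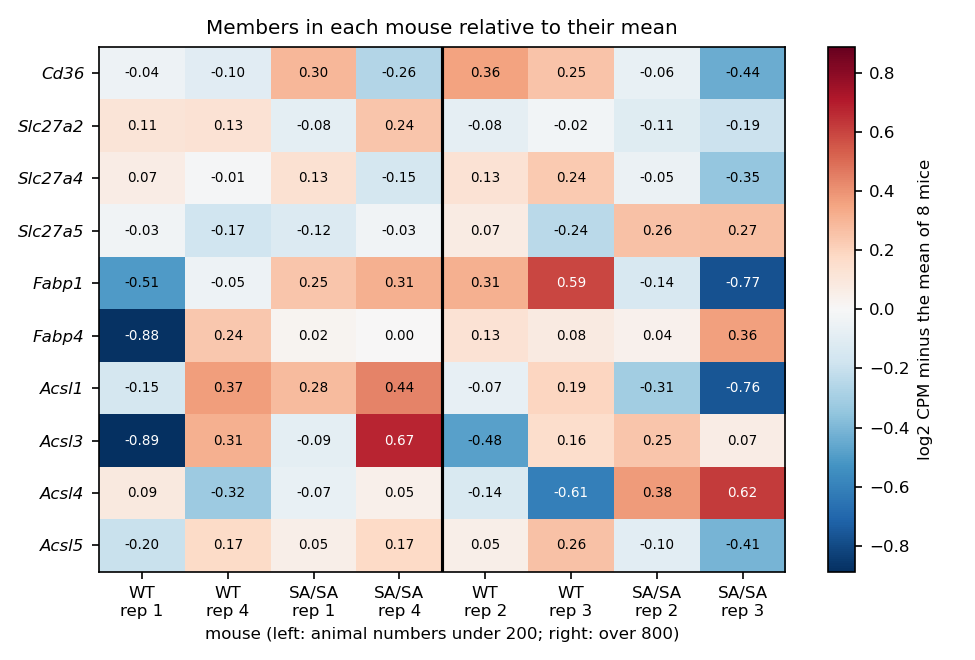
Log2 CPM of each of the 10 genes in each mouse minus the mean of the 8 mice, with animal numbers under 200 at the left and over 800 at the right. The column of SA/SA replicate 3 holds the lowest value for 6 genes and the highest for 3.

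Other genes of the pathway were read from a wider list of 26 genes, of which 20 were tested. In SA/SA mice 12 had a higher and 8 a lower mean, with a median log2 fold change of 0.078. By edgeR and by DESeq2, 0 of the 20 were called, and each had 2 at an unadjusted p under 0.05, where edgeR had 3.4% and DESeq2 4.06% of all genes. These were Acbd5, a peroxisomal binding protein for acyl-CoA, at 115 ± 17.7 CPM in WT and 93.4 ± 7.81 CPM in SA/SA mice (log2 fold change -0.31), and Acss3, a mitochondrial synthetase for short chains, at 21.7 ± 1.99 and 17.8 ± 2.21 CPM (-0.29). The unadjusted p by edgeR was 0.0390 for Acbd5 and 0.0398 for Acss3. With each mouse left out in turn, this p lay between 0.00436 and 0.106 for Acbd5 and between 0.0187 and 0.111 for Acss3. Acbd5 differed by about as much in both number ranges, -0.29 under 200 and -0.30 over 800. Slc27a6, Fabp3, Acsl6, Acsbg1, Acsbg2 and Acsm2 had too few reads to be tested. Of the tested uptake genes, Slc27a1 (FATP1, the transporter of muscle and fat) had the smallest p, with a log2 fold change of 0.33 and an unadjusted p of 0.0632.

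No regulator passed the threshold, with 0 called by edgeR and by DESeq2, where 0% and 0.041% of all genes were. At an unadjusted p under 0.05 there were 0 as well, against 3.4% of all genes by edgeR and 4.06% by DESeq2. The same held for the PPARa targets. Of 9 regulators, 6 were higher and 3 lower in SA/SA mice, with a median log2 fold change of 0.11, and the smallest unadjusted p was that of Ahr, the aryl hydrocarbon receptor, at 0.0573 (log2 fold change -0.29). Of the 12 PPARa targets, 7 were higher and 5 lower, with a median of 0.030. Angptl4, a secreted inhibitor of lipoprotein lipase, had their smallest unadjusted p at 0.174 (log2 fold change 0.21). No list held a gene whose genotypes separated, a pattern seen in 2.3% of all genes.

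As a description of patterns, the 14628 other genes tested were ranked by Pearson's r of log2 CPM over the 8 mice with Acsl4, which had the smallest genotype p of the group, and with Acsl3, which had the widest range of log2 CPM (1.56). The genes most like Acsl4 were Odc1 (ornithine decarboxylase, r = 0.989), Slain2 (0.982), Oat (ornithine aminotransferase, 0.970), Fbxo31 (0.968) and Wnt5b (0.966). Those most like Acsl3 were Zbtb8a (0.980), Kat5 (0.974), Zfp414 (0.967), Sesn1 (0.957) and 2700029M09Rik (0.941). These are the highest of many correlations over 8 mice that share libraries, and they carry no test.

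By GENCODE M21 on GRCm38, Cd36 (ENSMUSG00000002944) lies on chromosome 5 from 17781690 to 17888801 on the minus strand and Fabp1 (ENSMUSG00000054422) on chromosome 6 from 71199827 to 71205023 on the plus strand. Acsl4 (ENSMUSG00000031278) lies on chromosome X from 142317993 to 142390535 on the minus strand, Acsl1 (ENSMUSG00000018796) on chromosome 8 from 46471037 to 46536051 on the plus strand, and Acsl3 (ENSMUSG00000032883) on chromosome 1 from 78657825 to 78707743 on the plus strand. Slc27a2 (ENSMUSG00000027359) lies on chromosome 2 from 126552407 to 126588243 and Slc27a4 (ENSMUSG00000059316) on chromosome 2 from 29802634 to 29817522, both on the plus strand, and Slc27a5 (ENSMUSG00000030382) on chromosome 7 from 12988346 to 12998192 on the minus strand. Fabp4 (ENSMUSG00000062515) lies on chromosome 3 from 10204088 to 10208576 on the minus strand and Acsl5 (ENSMUSG00000024981) on chromosome 19 from 55251938 to 55297720 on the plus strand. Genes on the opposite strand overlap Slc27a2 (Gm26697), Acsl1 (Gm45244) and Acsl5 (Zdhhc6). Whether the counting used strand is not given in the sources used here, so reads of these partners cannot be told apart.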

How the data were processed

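The values deposited by the authors are estimated counts of genes made with salmon, scaled for average transcript length and not for library size. The submitters' processing notes also name GRCm38, bcl2fastq, STAR, SAMtools, MultiQC and DESeq2, and the salmon version is not given in the sources used here. The length scaling can shift values of genes with a different isoform mix between mice. The estimated counts were rounded, and the 14629 genes kept by filterByExpr were tested in R 4.3.3 with edgeR 4.0.16 by quasi-likelihood (TMM, 4 SA/SA against 4 WT mice, Benjamini-Hochberg adjustment over all genes, threshold 0.05). CPM used TMM-normalized library sizes and log2 CPM a prior count of 2. Standard errors came from the F statistic. P-values weigh a difference against the spread between mice. The genotype by animal number interaction and the number range (genotype in the model) were fitted likewise. DESeq2 1.42.0, other normalizations and filters, blocks and leaving out each mouse were alternatives, and a length measure and some alternatives for the animal number tests were added after the data were seen. Named genes were the 10 genes, Plin5, listed genes at an unadjusted p under 0.05 or else the smallest p of each list, and the 5 genes most like 2 of the 10. Members and lists were chosen with earlier results of these data known. Only the edgeR genotype test was checked on simulated counts, drawn at the dispersions of its own fit, and the other tests were not simulated. No libraries were copies: the most similar of 28 pairs had a median chi-square per gene of 3.82. Of 45706 gene identifiers, 45143 matched GENCODE M21. Promoter sequences are from RefSeq (GRCm38.p6).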

Additional observations from a re-analysis of the deposited data

Results flagged for a closer look

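In 32 groups of 4 mice (16 genes in each genotype), 2 held a mouse whose distance from its nearest neighbour was large for the range of its group by Dixon's criterion, which chance meets in about 1 in 20 groups. Fabp4 was at 6.04 CPM in SA/SA replicate 3, while the other SA/SA mice lay between 4.71 and 4.82 CPM. Plin5 was at 254 CPM in WT replicate 1, while the other WT mice lay between 183 and 194 CPM.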

How the results depend on the processing

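The genotype test called 0 of the 10 genes under every alternative run. Each count of calls was 0 in the main tests, and 50 recomputed counts were 0 as well. For all genes, DESeq2 called 6 for genotype where edgeR called 0. For the interaction with the animal number range, DESeq2 called 1 of the 10 genes and edgeR without a filter on low counts called 2, where the main test called 0. Why they differed was not tested. Leaving out each mouse in turn turned the log2 fold change of Fabp1 (range -0.33 to 0.014), Fabp4 (-0.035 to 0.27) and Acsl1 (-0.30 to 0.075), and the interaction of Fabp4 (-0.80 to 0.34), Slc27a2 (-0.22 to 0.11) and Acsl3 (-0.95 to 0.26), none of which was called. Of the values of single genes, 236 kept direction and call for genotype and 4 turned, and 123 kept both for the interaction, 6 turned and 3 gained a call. Same-numbered mice had correlations of deviations of 0.06, 0.17, -0.11 and 0.13. Only same-numbered pairs were computed, so these values cannot show whether replicate numbers pair the mice. With the replicate number as a block, 0 of the 10 genes were called, and 579 genes in place of 497 were at an unadjusted p under 0.05. Of the 10, the 1 at that level was then Acsl3 (log2 fold change 0.45, unadjusted p = 0.0428, edgeR) in place of Acsl4 (0.49, unadjusted p = 0.0541). With 4 mice per genotype, the intervals printed set what could be seen.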
